A study of Mus musculus with 8 samples.

Results

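The genes described here make up the machinery by which kidney epithelium moves chloride, and with it fluid, into a cyst. They are the 8 genes Cftr, Ano1, Ano6, Slc12a2, Kcnn4, Kcnq1, Slc9a3r1 and P2ry2, taken by symbol from a table of 55304 genes, and every one of the 8 was present once and passed the filter on low counts. RNA was sequenced from mouse kidney cells isolated by binding of DBA (Dolichos biflorus agglutinin), a lectin that marks mainly collecting duct epithelium, taken fresh from mice whose dosing began on postnatal day 11. The mice were wild type (WT) or had autosomal dominant polycystic kidney disease (ADPKD). The labels do not name the altered gene, its promoter or Cre driver, or the number of animals behind a library. Each genotype received either vehicle (DMSO) or 666-15, an inhibitor of the cyclic AMP-responsive transcription factor CREB. The dose was 5 mg/kg once a day on 5 days in a row followed by 2 days without dosing, for 3 weeks in all. This gave 4 groups (vehicle WT, 666-15 WT, vehicle ADPKD and 666-15 ADPKD) with 2 libraries each.

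Fluid secretion into a cyst runs on chloride that enters the cell across the basolateral membrane and leaves through apical channels into the lumen. The sodium-potassium-2-chloride cotransporter NKCC1 brings chloride in, CFTR opens an exit when cyclic AMP is high, and the calcium-activated channel TMEM16A opens another when cell calcium rises, for example after ATP binds P2Y receptors. Potassium channels keep the cell interior negative so that chloride continues to leave, and PDZ scaffold proteins hold CFTR at the apical membrane. In ADPKD, cyclic AMP is raised in cyst-lining cells, and chloride secretion is a known contributor to cyst filling.

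Library totals ran from 15108793 to 19702638 counts. Levels are given as normalised counts scaled to library size (CPM), and where genes are set against each other as CPM per kb of the longest annotated transcript. Differences are log2 fold changes ± SE of the fit, with p-values from the edgeR quasi-likelihood test adjusted by Benjamini-Hochberg over the 17440 genes tested, and a call is an adjusted p under 0.05. Whether the libraries of a group stem from different animals is not stated in the labels, so these p-values measure the spread between libraries, which may be technical. The exception is the 666-15 WT group, in which replicate 2 held 17688 counts of Xist and 0 of the Y-linked gene Ddx3y, whereas Xist did not exceed 8 counts in any of the other 7, so that sex was not balanced there. Markers of principal cells, the cells DBA is used to enrich, were present in every library (summed level 1003 to 5967 CPM over 8 markers), except the vasopressin receptor Avpr2, which had from 0 to 3 counts per library. The vehicle WT libraries also held proximal tubule markers at 6361 to 6853 CPM and thick ascending limb markers at 6117 to 6213 CPM. In vehicle ADPKD libraries these were at 22.5 to 25.9 CPM and 320.3 to 326.5 CPM.

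**Figure D1:**
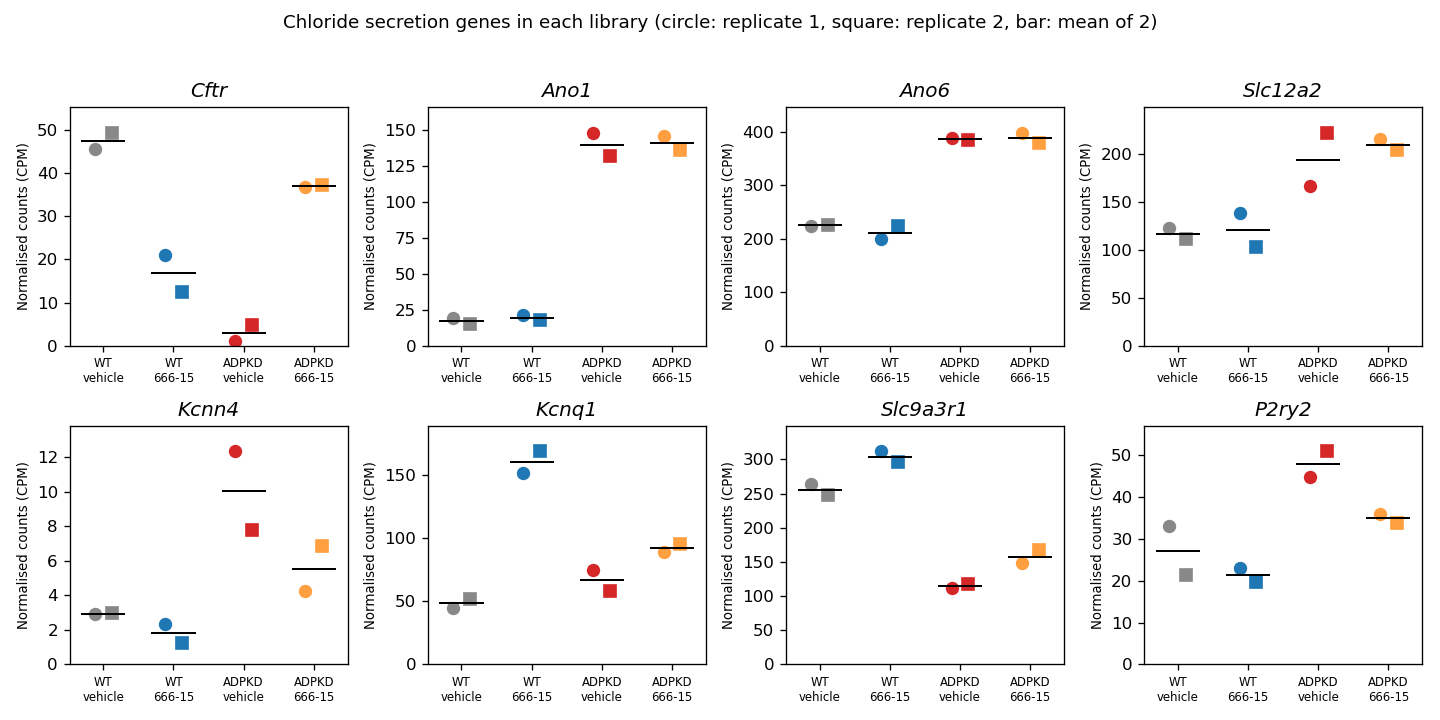
Level of each chloride secretion gene in CPM (vertical axis, one panel per gene) in the 2 libraries of each of the 4 groups, with circles for replicate 1, squares for replicate 2 and a bar at their mean. Cftr was lowest in the vehicle ADPKD libraries at 1.04 and 4.72 CPM, Ano1 was at 131.4 to 147.8 CPM in the 4 ADPKD libraries and 15.2 to 21.5 CPM in the 4 WT libraries, and Kcnq1 was highest in the 666-15 WT libraries.

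Cftr encodes the cyclic AMP-regulated apical chloride channel that is mutated in cystic fibrosis (GRCm38 chr6:18170687-18322768, plus strand). In vehicle-treated mice it was 16.5-fold lower in ADPKD than in WT cells, and with 666-15 it was 12.9-fold higher than with vehicle in ADPKD cells. Its level was 45.6 and 49.3 CPM in the vehicle WT libraries, 21.1 and 12.5 CPM in the 666-15 WT libraries, 1.04 and 4.72 CPM in the vehicle ADPKD libraries and 36.8 and 37.2 CPM in the 666-15 ADPKD libraries. No library of one group overlapped with another group: vehicle WT was highest, then 666-15 ADPKD, then 666-15 WT, and vehicle ADPKD was lowest. The vehicle ADPKD values rest on 20 and 87 counts and lay 4.55-fold apart, the widest gap between the libraries of a group for any of the 8 genes, whereas the 666-15 ADPKD values lay 1.01-fold apart. Cftr shares 129 exonic bases with the antisense model Gm15592. The strand setting of the counting is not given in the sources used here, so part of the Cftr counts could belong to that model.

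The difference of Cftr between the genotypes with vehicle was -4.05 ± 0.58 (adjusted p = 0.00156). It was -3.33 without vehicle ADPKD replicate 1 (adjusted p = 3.46e-06) and -5.53 without vehicle ADPKD replicate 2 (adjusted p = 2.83e-07). The increase with 666-15 in ADPKD cells was 3.69 ± 0.58 (adjusted p = 0.00389), and 2.97 or 5.16 without the same libraries in turn. Among all genes tested, this increase stood at the 99.1 percentile of log2 fold changes. In WT cells the inhibitor went with a difference in the other direction, -1.5 ± 0.49, which did not pass (adjusted p = 0.0792). Of 18 alternatives 5 called it: without vehicle ADPKD replicate 1 or 2 (adjusted p = 2.21e-04 and 2.16e-04), with the compared groups alone (adjusted p = 0.00356), without robust estimation (adjusted p = 0.0120) and with a filter of 5 CPM (adjusted p = 0.0275). The others did not, among them DESeq2 (adjusted p = 0.0941), the replicate block (adjusted p = 0.147) and the fit without the female 666-15 WT library (-1.17, adjusted p = 0.296). The difference between both inhibitor effects was itself tested and was 5.19 ± 0.76 (adjusted p = 0.00516).

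After 666-15, Cftr in ADPKD cells was at 37.0 ± 0.30 CPM (SD, n = 2), against 47.4 ± 2.6 CPM (SD, n = 2) in vehicle WT cells. The log2 difference was -0.36 ± 0.47 with a 95% interval from -1.52 to 0.81 (adjusted p = 0.561). The fit thus does not tell an equal level from a lower or a higher one. The libraries did not overlap, and 1 of 18 alternatives, the fit of these groups alone, called the difference (-0.44, adjusted p = 0.00221). With 666-15 in both genotypes, Cftr was 1.14 ± 0.49 higher in ADPKD on the log2 scale, which did not pass (adjusted p = 0.113). It was called in 4 of 18 alternatives, among them those without vehicle ADPKD replicate 1 or 2 (adjusted p = 7.74e-04 and 7.62e-04) and the fit of both groups alone (adjusted p = 0.00126).

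Cftr moved against a changing background of cell type markers. From vehicle WT to vehicle ADPKD all 6 intercalated cell, 6 of 6 proximal tubule and 3 of 4 thick ascending limb markers were lower, and the summed intercalated level went from 519.6 to 527.9 CPM down to 93.6 to 119.5 CPM. With 666-15 in ADPKD cells 5 of 6 intercalated markers (356.8 to 454.3 CPM) and 5 of 6 proximal tubule markers (102.1 to 117.5 CPM) were higher, while 4 of 7 tested principal cell markers were higher and 1 lower. In WT cells Cftr was lower with 666-15, without a call. There 4 of 6 intercalated markers (1010 to 1425 CPM) and 7 of 7 tested principal cell markers were higher. Lower were 5 of 6 proximal tubule, 3 of 4 thick ascending limb and 3 of 3 distal convoluted tubule markers. In such bulk samples, fewer cells of a type and less RNA per cell cannot be told apart, and the part of these markers in the Cftr result was not tested. Fold changes with 666-15 in ADPKD cells also ran with transcript GC content (Spearman -0.35 over 17252 genes, which are not independent replicates). The Cftr transcript had the lowest GC content of the 8 genes (41.2%), and with the GC trend removed its increase was 3.34 (adjusted p = 0.00839).

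Because the drug acts on a transcription factor, the stretches around the start sites of 3 genes are shown: Cftr, which rose with the inhibitor in ADPKD cells, and Ano6 and Ano1, which did not pass with it in either genotype. RefSeq windows from 250 bases before to 50 after the start (build GRCm38.p6) were found for 6 of the 8 genes, not for Slc12a2 or Kcnq1, and were searched on both strands for the cyclic AMP response element TGACGTCA, for TGACNTCA with any base in the fifth place, and for the shorter core TGACG, which the full element contains. The second pattern was chosen after the Cftr window had been seen. Each sequence runs 5′ to 3′ on the gene's strand and ends 30 bases after the start, with matched bases in capitals.
Cftr, chr6:18170437-18170716, plus strand: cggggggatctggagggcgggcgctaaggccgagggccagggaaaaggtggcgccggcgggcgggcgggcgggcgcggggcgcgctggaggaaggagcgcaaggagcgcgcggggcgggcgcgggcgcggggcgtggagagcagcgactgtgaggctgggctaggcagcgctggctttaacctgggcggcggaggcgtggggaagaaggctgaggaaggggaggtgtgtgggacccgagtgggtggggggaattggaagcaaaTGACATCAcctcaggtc
Ano6, chr15:95790593-95790872, plus strand: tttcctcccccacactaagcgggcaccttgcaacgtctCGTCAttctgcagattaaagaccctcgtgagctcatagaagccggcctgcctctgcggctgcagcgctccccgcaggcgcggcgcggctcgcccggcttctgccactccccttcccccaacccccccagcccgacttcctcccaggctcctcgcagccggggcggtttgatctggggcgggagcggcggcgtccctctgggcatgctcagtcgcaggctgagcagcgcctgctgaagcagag
Ano1, chr7:144738544-144738823, minus strand: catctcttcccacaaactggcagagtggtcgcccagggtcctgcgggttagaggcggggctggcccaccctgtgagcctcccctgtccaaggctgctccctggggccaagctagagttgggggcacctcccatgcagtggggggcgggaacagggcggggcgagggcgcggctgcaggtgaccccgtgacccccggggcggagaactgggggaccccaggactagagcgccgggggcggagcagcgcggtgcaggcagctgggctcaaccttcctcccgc
The Cftr window held TGACATCA at bases 14 to 21 after the start, a match to TGACNTCA. The Ano6 window held this core on the other strand at -212 to -208. The Ano1, Kcnn4, Slc9a3r1 and both P2ry2 windows held none of the 3 patterns. The gene spans given here for Ano1 and P2ry2, both on the minus strand, begin at 144751974 and 101012866. Their RefSeq windows lie inside these spans, so the outer starts were not searched. Across 32851 RefSeq windows of the same length, 1.8% held TGACGTCA, 8.8% TGACNTCA and 20.8% TGACG, and a match is a description of the letters only.

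Ano1 encodes TMEM16A, the calcium-activated apical chloride channel (chr7:144588549-144751974, minus strand). It was 8.13-fold higher in ADPKD than in WT cells with vehicle and remained so with the inhibitor. Its level was 19.0 and 15.2 CPM in vehicle WT, 21.5 and 17.7 CPM in 666-15 WT, 147.8 and 131.4 CPM in vehicle ADPKD and 145.7 and 135.7 CPM in 666-15 ADPKD libraries. Both treatments overlapped within each genotype, and the genotypes were far apart. The log2 difference between genotypes was 3.02 ± 0.14 with vehicle (adjusted p = 2.04e-09) and 2.85 ± 0.14 with 666-15 (adjusted p = 1.31e-08). The inhibitor's own difference was 0.01 ± 0.13 in ADPKD cells (95% interval -0.26 to 0.28, adjusted p = 0.954) and 0.19 ± 0.14 in WT cells (95% interval -0.12 to 0.49, adjusted p = 0.372).

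Ano6 encodes TMEM16F, a calcium-activated lipid scramblase that also conducts ions (chr15:95790843-95974751, plus strand). It was 1.71-fold higher in ADPKD than in WT cells with vehicle. Its level was 224.7 and 226.6 CPM in vehicle WT, 199.3 and 224.3 CPM in 666-15 WT, 388.3 and 384.3 CPM in vehicle ADPKD and 398.4 and 379.6 CPM in 666-15 ADPKD libraries. The ADPKD libraries lay close together whatever the treatment, and all 4 lay above all 4 WT libraries. The genotype difference was 0.78 ± 0.093 with vehicle (adjusted p = 1.18e-05) and 0.88 ± 0.093 with 666-15 (adjusted p = 8.50e-06). The inhibitor's difference was 0.01 ± 0.092 in ADPKD (adjusted p = 0.944) and -0.09 ± 0.093 in WT cells (adjusted p = 0.517). Ano6 shares 214 exonic bases with the antisense model A130051J06Rik and 122 with Gm49172, and since the strand setting of the counting is not given in the sources used here, a small part of its counts could belong to either.

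Scaled to transcript length, the apical channels changed places between the genotypes. In vehicle WT cells the level of Cftr was 7.40 ± 0.41 CPM per kb (SD, n = 2) and that of Ano1 was 3.74 ± 0.58 CPM per kb (SD, n = 2), and in vehicle ADPKD cells they were 0.45 ± 0.41 and 30.4 ± 2.5 CPM per kb. Cftr made up 63.1% and 69.8% of the summed Cftr and Ano1 level per kb in the vehicle WT libraries and 0.500% and 2.51% in the vehicle ADPKD libraries. It made up 15.3% and 16.4% in the 666-15 ADPKD libraries and 41.2% and 33.7% in the 666-15 WT libraries. The 4 groups did not overlap in this share. In 666-15 ADPKD cells the level of Cftr was 5.77 ± 0.047 CPM per kb (SD, n = 2), and that of Ano1 was 30.7 ± 1.5 CPM per kb (SD, n = 2), about where it was with vehicle.

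**Figure D2:**
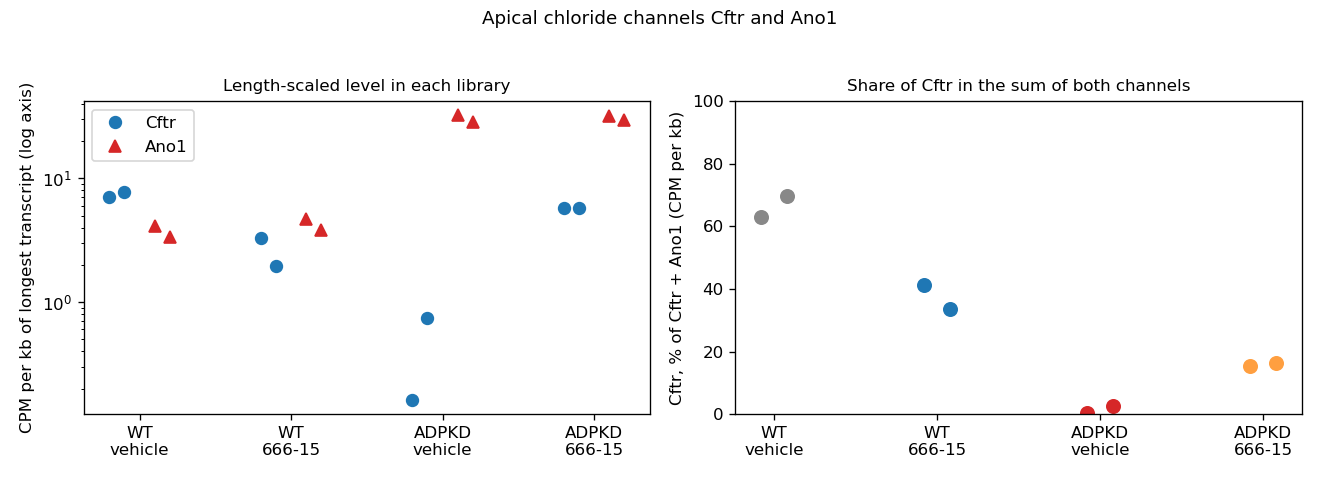
Left, level of Cftr (blue circles) and Ano1 (red triangles) in CPM per kb of the longest transcript on a log axis in each library. Right, Cftr as a percentage of the sum of both per library, which was 63.1% and 69.8% in vehicle WT, 41.2% and 33.7% in 666-15 WT, 0.500% and 2.51% in vehicle ADPKD and 15.3% and 16.4% in 666-15 ADPKD libraries.

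Slc12a2 encodes NKCC1, the basolateral cotransporter that loads the cell with chloride (chr18:57878678-57946821, plus strand). It was 1.66-fold higher in ADPKD than in WT cells with vehicle. Its level was 122.4 and 111.1 CPM in vehicle WT, 138.4 and 103.2 CPM in 666-15 WT, 165.9 and 221.6 CPM in vehicle ADPKD and 214.8 and 203.5 CPM in 666-15 ADPKD libraries. All ADPKD libraries were above all WT libraries, and the treatments overlapped in each genotype. The genotype difference was 0.73 ± 0.16 with vehicle (adjusted p = 0.00219), with 0.48 without vehicle ADPKD replicate 2 (adjusted p = 0.0213), and 0.79 ± 0.16 with 666-15 (adjusted p = 0.00184). The inhibitor's difference was 0.11 in ADPKD cells (95% interval -0.23 to 0.45, adjusted p = 0.605) and 0.05 in WT cells (95% interval -0.30 to 0.40, adjusted p = 0.856).

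Kcnq1 encodes the pore of a voltage-gated potassium channel that works with KCNE subunits in secretory epithelia (chr7:143106362-143427042, plus strand). It was 3.32-fold higher with 666-15 than with vehicle in WT cells, and it was the only one of the 8 genes called in that comparison. Its level was 44.6 and 52.3 CPM in vehicle WT, 152.1 and 169.0 CPM in 666-15 WT, 74.7 and 58.5 CPM in vehicle ADPKD and 89.5 and 95.6 CPM in 666-15 ADPKD libraries. The 666-15 WT libraries stood well above the rest and no groups overlapped. The inhibitor's difference was 1.73 ± 0.13 in WT cells (adjusted p = 1.75e-06) and 0.47 ± 0.13 in ADPKD cells (adjusted p = 0.0106), and the ADPKD effect was smaller by 1.25 ± 0.18 in the test of the difference (-1.25, adjusted p = 3.69e-04).

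The smaller Kcnq1 differences were less stable. The ADPKD increase did not pass without vehicle ADPKD replicate 2 (0.33, adjusted p = 0.0894) or without 666-15 ADPKD replicate 2 (0.44, adjusted p = 0.0740), and removing the GC trend gave 0.83 (adjusted p = 5.34e-04). With vehicle, Kcnq1 was 0.46 ± 0.13 higher in ADPKD than in WT on the log2 scale (adjusted p = 0.00901), a call lost without vehicle WT replicate 1 (0.33, adjusted p = 0.124), without vehicle ADPKD replicate 1 (0.27, adjusted p = 0.138) and once the GC trend was taken out (0.32, adjusted p = 0.0647). With 666-15 in both genotypes it was lower in ADPKD (-0.79 ± 0.13, adjusted p = 2.62e-04).

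In the comparison where Kcnq1 rose most, principal cell markers rose with it: 7 of 7 tested were higher with 666-15 in WT cells, and their summed level went from 1003 and 1353 CPM to 5923 and 5967 CPM. The epithelial sodium channel subunit Scnn1g differed by 2.67 ± 0.13, more than Kcnq1, while proximal tubule markers were lower (5 of 6). Without the female library the Kcnq1 increase was 1.65, in a fit that left only replicate 1 of the 666-15 WT group. The part of this shift, and of the library from a female, in the Kcnq1 result was not tested. The antisense transcript Kcnq1ot1, which shares 121 exonic bases with Kcnq1, was at -0.30 ± 0.20 with 666-15 in WT cells (adjusted p = 0.318) and at 0.26 ± 0.20 in ADPKD cells (adjusted p = 0.320). Between genotypes it was higher in ADPKD with vehicle (0.89 ± 0.20, adjusted p = 0.00293) and with 666-15 (1.46 ± 0.20, adjusted p = 1.85e-04). Its part in the Kcnq1 counts was not tested.

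Kcnn4 encodes KCa3.1, the calcium-activated potassium channel that sustains chloride secretion in cyst epithelium (chr7:24370263-24386690, plus strand). It was 3.41-fold higher in ADPKD than in WT cells with vehicle, and its level per kb was the lowest of the 8 genes in every group but vehicle ADPKD, where Cftr was lower. Its level was 2.94 and 2.95 CPM in vehicle WT, 2.32 and 1.27 CPM in 666-15 WT, 12.3 and 7.76 CPM in vehicle ADPKD and 4.23 and 6.86 CPM in 666-15 ADPKD libraries, on 20 to 238 counts. No groups overlapped, with vehicle ADPKD highest and 666-15 WT lowest. The genotype difference was 1.77 ± 0.35 with vehicle (adjusted p = 7.81e-04) and 1.63 ± 0.38 with 666-15 (adjusted p = 0.00371), the latter lost without 666-15 ADPKD replicate 2 (1.24, adjusted p = 0.0555). With 666-15 in ADPKD cells it was -0.86 ± 0.34, which did not pass (adjusted p = 0.0562) and lay on either side of the threshold among the alternatives, 6 of 18 of which called it.

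Set against Kcnq1 per kb, Kcnn4 took a smaller share in treated cells. It made up 12.1% and 9.95% of the summed Kcnn4 and Kcnq1 level per kb in the vehicle ADPKD libraries and 3.79% and 5.64% in the 666-15 ADPKD libraries. In WT libraries it made up 5.20% and 4.49% with vehicle and 1.25% and 0.620% with 666-15. Treated libraries were below vehicle libraries in both genotypes, without overlap. Kcnn4 itself had no call with 666-15 in either genotype (in WT cells -0.72 ± 0.39, adjusted p = 0.209), whereas Kcnq1 was called higher in both. In WT libraries Kcnn4 had 59 and 50 counts with vehicle and 35 and 20 with 666-15.

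Slc9a3r1 encodes NHERF1, a PDZ scaffold that binds the tail of CFTR and is also abundant in the proximal tubule brush border (chr11:115163341-115181181, plus strand). With Cftr it was one of 2 genes of the set that were lower in ADPKD cells with vehicle, by 2.24-fold. Its level was 263.6 and 248.4 CPM in vehicle WT, 311.9 and 296.1 CPM in 666-15 WT, 111.3 and 117.4 CPM in vehicle ADPKD and 147.9 and 167.6 CPM in 666-15 ADPKD libraries. The groups did not overlap, and both treated groups lay above their vehicle group. The genotype difference was -1.16 ± 0.098 with vehicle (adjusted p = 4.60e-07) and -0.95 ± 0.097 with 666-15 (adjusted p = 6.52e-06). Proximal tubule markers were lower between the same groups, as given above for the vehicle libraries, and their part in the Slc9a3r1 result was not tested.

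With 666-15, Slc9a3r1 rose in ADPKD cells by 0.46 ± 0.097 (adjusted p = 0.00220). In WT cells its difference was 0.25 ± 0.096, which did not pass (adjusted p = 0.0785). Proximal tubule markers went the other way in WT cells, with 5 of 6 lower and 0 higher (6361 to 6853 CPM with vehicle, 2289 to 2700 CPM with 666-15). In ADPKD cells 5 of 6 were higher and 0 lower (22.5 to 25.9 CPM and 102.1 to 117.5 CPM). Their part in these inhibitor differences was not tested. The Slc9a3r1 transcript had the highest GC content of the 8 genes (58.5%), and with the GC trend removed the ADPKD difference was 0.91 (adjusted p = 2.33e-05). The difference between both inhibitor effects did not pass (0.22 ± 0.14, adjusted p = 0.271), but passed after removal of the GC trend (0.72, adjusted p = 0.00232) or of the transcript length trend (0.39, adjusted p = 0.0361). In 666-15 ADPKD cells Slc9a3r1 remained below vehicle WT (-0.70 ± 0.097, adjusted p = 4.74e-05).

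P2ry2 encodes the P2Y2 receptor, through which extracellular ATP and UTP raise cell calcium (chr7:100996568-101012866, minus strand). It was 1.75-fold higher in ADPKD than in WT cells with vehicle. Its level was 33.0 and 21.4 CPM in vehicle WT, 23.1 and 19.6 CPM in 666-15 WT, 44.7 and 50.9 CPM in vehicle ADPKD and 35.9 and 33.8 CPM in 666-15 ADPKD libraries. All ADPKD libraries were above all WT libraries, and vehicle ADPKD was highest. The genotype difference was 0.81 ± 0.18 with vehicle (adjusted p = 0.00225). The vehicle WT libraries lay 1.54-fold apart, and it was 1.14 without replicate 1 of that group (adjusted p = 2.58e-04) and 0.51 without replicate 2 (adjusted p = 0.0356).

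With 666-15 in both genotypes, P2ry2 was 0.71 ± 0.19 higher in ADPKD (adjusted p = 0.00809), a call lost without 666-15 WT replicate 2 (0.61, adjusted p = 0.0584) or 666-15 ADPKD replicate 1 (0.67, adjusted p = 0.0597). The inhibitor's difference in ADPKD cells was -0.45 ± 0.18 without a call (adjusted p = 0.0631), and 6 of 18 alternatives called it, one of them the replicate block (-0.46, adjusted p = 0.0473). After removal of the GC trend it was -0.12 (adjusted p = 0.627). In WT cells it was -0.35 ± 0.19 (adjusted p = 0.197), with overlapping libraries.

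**Figure D3:**
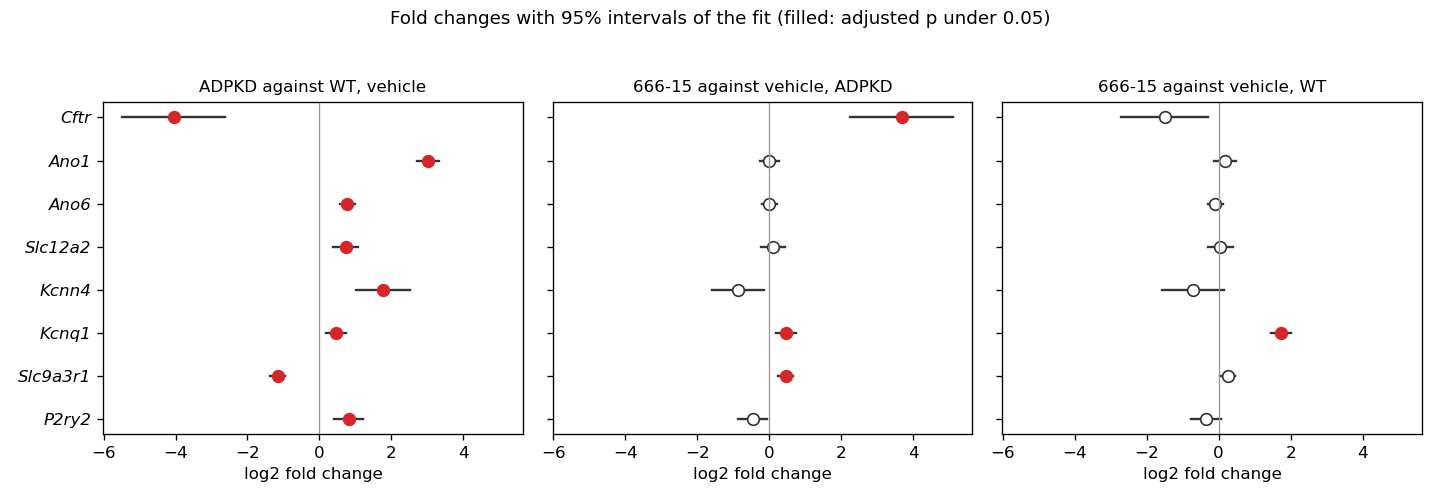
Log2 fold change (horizontal axis) of each gene with its 95% interval from the fit, for ADPKD against WT with vehicle, 666-15 against vehicle in ADPKD cells, and 666-15 against vehicle in WT cells. Filled points passed the adjusted p threshold, as all 8 did between genotypes, 3 did with the inhibitor in ADPKD cells (Cftr, Kcnq1 and Slc9a3r1) and only Kcnq1 did in WT cells.

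Counted together, all 8 genes passed between the genotypes with vehicle, 6 higher (Ano1, Ano6, Slc12a2, Kcnn4, Kcnq1 and P2ry2) and 2 lower (Cftr and Slc9a3r1) in ADPKD. Of all genes tested, 56.4% passed in this comparison, 28.8% higher and 27.6% lower. The median log2 fold change was 0.75 over the 8 genes and 0.05 over all genes. Beside all 8 differences stand the lower proximal tubule, thick ascending limb and intercalated cell markers given above, and markers that were higher in vehicle ADPKD than in vehicle WT libraries. Macrophage markers were higher in 4 of 5 and lower in 1 (71.2 to 97.3 CPM in WT, 201.8 to 242.2 CPM in ADPKD), stromal markers were higher in 3 of 4 (79.4 to 98.4 and 179.3 to 333.5 CPM), and principal cell markers were higher in 4 of 7 tested and lower in 1 (1003 to 1353 and 1516 to 1853 CPM). Their part in these differences was not tested. With 666-15 in ADPKD cells 3 of 8 were higher and 0 lower, against 41.4% of all genes called (22.3% higher and 19.1% lower), and the median was 0.06 against 0.02. Beside the count of 0 lower, Kcnn4 (edgeR unadjusted p = 0.0239, adjusted p = 0.0562) and P2ry2 (edgeR unadjusted p = 0.0278, adjusted p = 0.0631) were under 0.05 before adjustment, and DESeq2 called 3 genes, 0 of them lower. Both were called lower, beside 3 higher genes, without a filter, with a filter of 5 CPM and with the 2 groups alone, and 1 of them under the replicate block and without any 1 of 5 single libraries (either vehicle WT, either 666-15 WT or vehicle ADPKD replicate 2). In WT cells 1 of 8 was called, against 25.5% of all genes (13.9% higher and 11.6% lower). These shares of the 8 were near those of all genes for the inhibitor in ADPKD cells and below them for WT cells, and with so few genes neither is a result about the set. The members were chosen with earlier results of these data known, so the count and median between genotypes are no result about the set either.

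With 666-15 in both genotypes 5 were higher and 2 lower in ADPKD (background 46.3% of all genes, 21.8% higher and 24.5% lower), the exceptions to the vehicle pattern being Kcnq1, which was lower, and Cftr, which had no call. Set against vehicle WT, 666-15 ADPKD cells had 5 higher and 1 lower (background 55.3%, 28.6% higher and 26.7% lower): Ano1 by 3.03, Kcnq1 by 0.93, Kcnn4 by 0.91, Slc12a2 by 0.84 and Ano6 by 0.79 were higher and Slc9a3r1 was lower. P2ry2 did not pass (0.36, adjusted p = 0.120), and the Kcnn4 call (adjusted p = 0.0458) was lost under 9 of 18 alternatives. The inhibitor's effect differed between genotypes for 2 of 8 genes, Cftr towards a larger increase in ADPKD and Kcnq1 towards a smaller one (background 26.6%, 13.6% higher and 13% lower). These comparisons share groups, so their values are side by side and are not independent of each other.

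Ordered by level per kb, Slc9a3r1 was first in both WT groups, at 133.0 ± 5.6 CPM per kb (SD, n = 2) with vehicle, followed in vehicle WT by Ano6 at 45.8 ± 0.27, and then by Slc12a2 at 17.9 ± 1.2 and Kcnq1 at 16.0 ± 1.8 CPM per kb, whose libraries overlapped. In vehicle ADPKD cells Ano6 was first at 78.4 ± 0.57 CPM per kb (SD, n = 2) and Slc9a3r1 next at 59.4 ± 2.3, followed by Ano1 at 30.4 ± 2.5 and Slc12a2 at 29.7 ± 6.0 CPM per kb, which overlapped. Ano1 was behind Ano6 and Slc9a3r1 only, whereas in vehicle WT it stood above Kcnn4 alone. Cftr was last in vehicle ADPKD, behind Kcnn4 at 2.76 ± 0.89 CPM per kb, and sixth in vehicle WT, where its libraries overlapped with those of P2ry2.

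Other genes of the same pathway were grouped in 6 lists, chosen with earlier results of these data known. Among 25 tested anion channels and exchangers outside the set, 3 were higher and 11 lower in ADPKD with vehicle, 10 were higher and 6 lower with 666-15 in ADPKD cells, and 5 were higher and 4 lower with it in WT cells. Over all genes 56.4% (28.8% higher and 27.6% lower), 41.4% (22.3% and 19.1%) and 25.5% (13.9% and 11.6%) were called in these comparisons. The count between genotypes in either direction was at the background, with more genes lower than higher. Markers of other tubule cells were lower there too: 6 of 6 proximal tubule, 3 of 4 thick ascending limb and 6 of 6 intercalated cell markers. Their part was not tested. The chloride-iodide-bicarbonate exchanger Slc26a4 (pendrin) was at 185.4 ± 20 CPM in vehicle WT, 350.5 ± 120.9 in 666-15 WT, 16.5 ± 1.2 in vehicle ADPKD and 78.2 ± 11.9 CPM in 666-15 ADPKD cells (SD, n = 2). It rose with the inhibitor by 2.25 in ADPKD (adjusted p = 3.15e-04) and by 0.92 in WT cells (adjusted p = 0.0214). Its relative Slc26a7 rose by 3.04 in ADPKD (adjusted p = 1.06e-05) and by 1.33 in WT cells (adjusted p = 7.31e-04). Both occur in intercalated cells, and Slc26a4 is one of the 6 intercalated cell markers counted above. Clca3a1, a calcium-dependent regulator of chloride conductance, was 2.39 higher in ADPKD on the log2 scale with vehicle (adjusted p = 1.01e-04), and the lysosomal exchanger Clcn7 was 1.41 higher (adjusted p = 1.36e-07).

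Of 17 potassium channels and subunits outside the set, 2 were higher and 12 lower in ADPKD with vehicle, with a median log2 fold change of -2.25 against 0.05 for all genes, of which 28.8% were higher and 27.6% lower. Markers of other tubule cells moved the same way: 6 of 6 proximal tubule, 3 of 4 thick ascending limb and 6 of 6 intercalated cell markers were lower, and their part was not tested. Kcnj1 (ROMK, the secretory potassium channel of the distal nephron) was lower (-4.24, adjusted p = 1.56e-09), as was Kcnj15, another inward rectifier (-5.91, adjusted p = 1.03e-09). With 666-15 in ADPKD cells 8 were higher and 2 lower (all genes 22.3% and 19.1%), where 5 of 6 proximal tubule and 5 of 6 intercalated cell markers were higher too. In WT cells 4 were higher and 3 lower (all genes 13.9% and 11.6%). Kcne1, a subunit that assembles with KCNQ1, rose in both: by 1.89 in ADPKD (adjusted p = 8.64e-06) and by 2.15 in WT cells (adjusted p = 1.90e-06). Its level was 28.2 ± 5.2 CPM in vehicle WT, 125.6 ± 12.5 in 666-15 WT, 8.05 ± 0.60 in vehicle ADPKD and 29.9 ± 5.8 CPM in 666-15 ADPKD cells (SD, n = 2).

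On the basolateral side, 17 genes of ion entry, the sodium pump and their kinases were tested besides Slc12a2. With vehicle 7 were higher and 8 lower in ADPKD, with the inhibitor in ADPKD cells 6 were higher and 6 lower, and in WT cells 6 were higher and 4 lower, against 56.4%, 41.4% and 25.5% of all genes called in either direction. The pump's regulatory subunit Fxyd2 was lower in all 3 comparisons (-2.16, -1.75 and -1.21, adjusted p = 2.04e-09, 2.80e-07 and 2.54e-06). The pump subunit Atp1b1 rose with 666-15 in ADPKD cells by 1.04 (adjusted p = 8.63e-06), from 1228 ± 115 to 2531 ± 211 CPM (SD, n = 2). Its mean was higher with 666-15 in WT cells too, at 3673 ± 84 against 2191 ± 24 CPM with vehicle (SD, n = 2). Stk39, which encodes SPAK, a kinase that phosphorylates and activates NKCC1, rose with 666-15 in WT cells by 0.81 (adjusted p = 0.00125), from 48.0 ± 5.8 to 84.2 ± 17.4 CPM (SD, n = 2). The Stk39 mean was higher with 666-15 in ADPKD cells too, at 110.8 ± 6.6 against 67.3 ± 5.8 CPM with vehicle (SD, n = 2).

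Among 26 CFTR scaffold, trafficking and turnover genes besides Slc9a3r1, 7 were higher and 11 lower in ADPKD with vehicle (56.4% of all genes called). The scaffold Pdzk1, strongly expressed in proximal tubule, went from 318.5 ± 16.2 to 1.84 ± 0.47 CPM (SD, n = 2; -7.44, adjusted p = 1.94e-07), and Stx1a, a syntaxin that binds CFTR and inhibits its current, rose from 3.68 ± 0.86 to 24.5 ± 2.9 CPM (SD, n = 2; 2.73, adjusted p = 5.37e-07). With 666-15 in ADPKD cells 12 were higher and 9 lower (41.4% of all genes called). Stx1a then fell to 11.9 ± 1.0 CPM (SD, n = 2; -1.04, adjusted p = 0.00189), the second NHERF gene Slc9a3r2 fell from 37.2 ± 2.7 to 10.3 ± 1.5 CPM (SD, n = 2; -1.85, adjusted p = 6.00e-04) and the ubiquitin ligase Nedd4l rose (1.24, adjusted p = 3.44e-06). In WT cells 5 were higher and 8 lower (25.5% of all genes called), and Nedd4l rose there too (0.82, adjusted p = 7.05e-05), from 363.8 ± 9.3 to 641.0 ± 2.7 CPM (SD, n = 2). Beside the fall of Slc9a3r2 in ADPKD cells, 5 of 5 endothelial markers were lower (803.2 to 1002 CPM with vehicle, 218.3 to 272.5 CPM with 666-15). Of 3 podocyte markers 1 was lower and 0 higher (121.9 to 130.7 CPM and 51.0 to 61.8 CPM). The part of these markers in the Slc9a3r2 result was not tested.

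Of 15 tested receptors for secretion agonists besides P2ry2, 6 were higher and 5 lower in ADPKD with vehicle (all genes 28.8% and 27.6%). The prostaglandin E2 receptor Ptger4, which raises cyclic AMP, was at 30.6 ± 5.1 CPM in vehicle WT and 92.5 ± 5.8 CPM in vehicle ADPKD cells (SD, n = 2; 1.6, adjusted p = 2.45e-07), and the ATP-gated channel P2rx7 was higher by 2.07 (adjusted p = 6.37e-05). With the inhibitor 3 rose and 3 fell in ADPKD cells (all genes 22.3% and 19.1%), P2rx7 among the latter (-0.87, adjusted p = 0.0266). In WT cells 4 were higher and 1 lower (all genes 13.9% and 11.6%), with Ptger4 at 91.2 ± 5.8 CPM (SD, n = 2; 1.58, adjusted p = 2.36e-06). Beside the P2rx7 differences, 4 of 5 macrophage markers were higher and 1 lower in ADPKD with vehicle (71.2 to 97.3 CPM in WT, 201.8 to 242.2 CPM in ADPKD). With 666-15 in ADPKD cells 1 of these 5 was lower and 0 higher (143.6 to 186.3 CPM). Their part in the P2rx7 result was not tested. Of 9 genes of nucleotide release and breakdown, 2 were higher and 5 lower in ADPKD with vehicle (all genes 28.8% and 27.6%): the ATP release channel Panx1 was higher (2.46, adjusted p = 2.56e-05) and the nucleotidase Nt5e lower (-2.02, adjusted p = 3.69e-06). With 666-15 1 was higher and 2 lower in ADPKD cells (all genes 22.3% and 19.1%) and 0 higher and 5 lower in WT cells (all genes 13.9% and 11.6%). The ectonucleotidase Entpd1, also found on endothelium, fell in ADPKD cells (-1.86, adjusted p = 4.34e-06), where 5 of 5 endothelial markers were lower too (803.2 to 1002 CPM with vehicle, 218.3 to 272.5 CPM with 666-15). The part of these cells in that result was not tested.

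**Figure D4:**
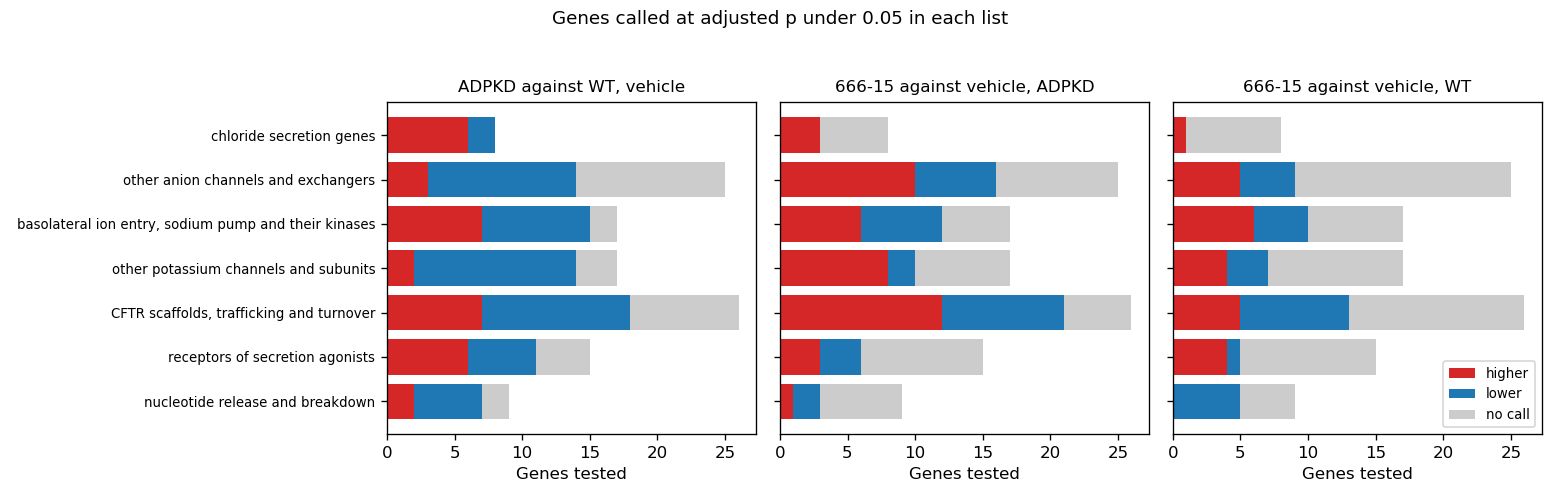
Number of genes tested in the chloride secretion set and in 6 lists of related genes (bar length), split into those higher (red), lower (blue) and without a call (grey), for 3 comparisons. Of the other potassium channels and subunits, 12 of 17 were lower in ADPKD with vehicle, and 8 of 17 were higher with 666-15 in ADPKD cells.

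**Figure D5:**
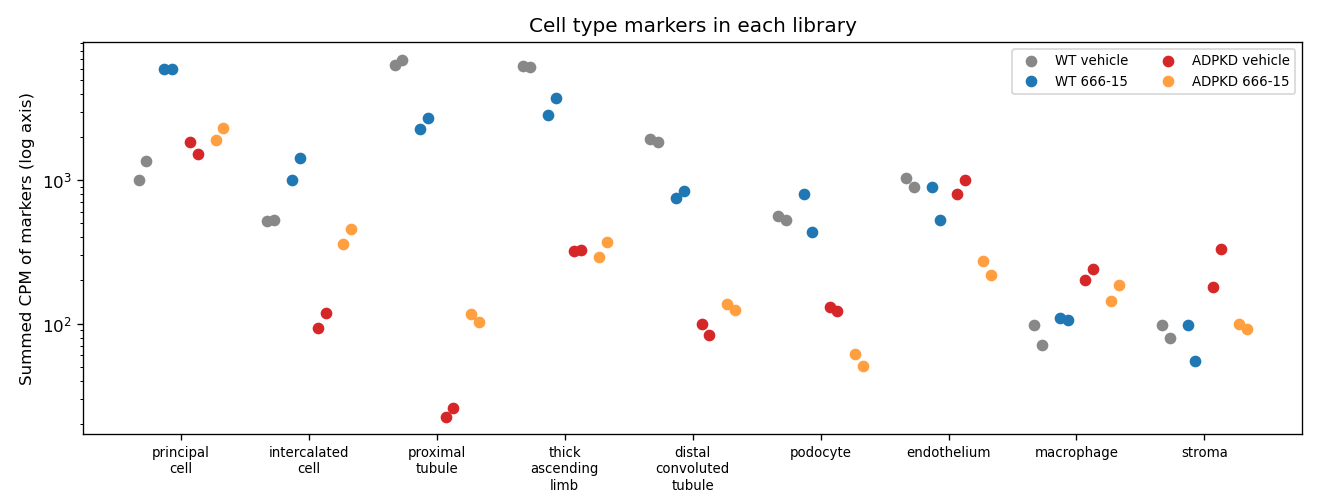
Summed CPM of the markers of 9 cell types (log axis) in each library, coloured by group. Proximal tubule markers were at 6361 to 6853 CPM in vehicle WT and 22.5 to 25.9 CPM in vehicle ADPKD libraries, and principal cell markers were highest in the 666-15 WT libraries at 5923 and 5967 CPM.

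The genes with the pattern most like each member were sought among 10750 genes by the root mean square difference of log2(CPM + 1), each centred on its own mean over the 8 libraries. Cftr had no close neighbour: the nearest were the sodium-calcium exchanger Slc8a1 and the cytokine gene Tnfsf15, both at 0.72, and Epb41l3 at 0.73. Slc8a1 was at 127.6 and 89.5 CPM in vehicle WT, 15.8 and 16.6 CPM in vehicle ADPKD and 98.9 and 101.7 CPM in 666-15 ADPKD libraries, so it shared the low vehicle ADPKD and high treated ADPKD levels, but was at 69.4 and 100.8 CPM in 666-15 WT libraries. Ano1 lay nearest to Moxd1 (0.18), Akr1b8 (0.19) and Hkdc1 (0.20), Kcnq1 to Itpkc (0.16), Cln8 (0.17) and Shroom3 (0.18), and Kcnn4 to Phldb3 (0.19). The remaining genes had closer neighbours, at 0.060 for Ano6 (Vps50), 0.074 for Slc9a3r1 (Tpi1), 0.092 for Slc12a2 (Ptpn9) and 0.096 for P2ry2 (Fhdc1). Genes with small changes lie close to many others by this measure, so these distances describe likeness and rank nothing between members.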

How the data were processed

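HISAT2 2.1.0, featureCounts 1.6.0, DESeq2 and the build mm10 are listed per the submitters' processing notes. Annotation release, strandedness and handling of multiply mapped reads are not given in the sources used here. Values were deposited as raw counts per gene in 8 libraries. Columns without a treatment in their name were taken as the vehicle samples, the only ones left. The analysis used edgeR 4.0.16 in R 4.3.3: filterByExpr (at least 10 counts in enough libraries, 15 in total), TMM scaling, and 1 robust quasi-likelihood model of 4 groups (4 residual degrees of freedom) with 6 contrasts, two-sided. The model was also run on counts simulated from the mean and estimated dispersion of each gene in these data. Such a run cannot show that the model suits the data.

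Gene positions, transcript lengths and GC content came from GENCODE M21, which matched 96.9% of symbols. The members and the lists were chosen with earlier results of these data known. Besides the 8 members, the text could name up to 3 higher and 3 lower called genes per list and comparison whose mean reached 5 CPM and whose libraries did not overlap, the 3 nearest genes of each member, and cell type markers. Alternatives were RLE scaling, no filter, a filter of 5 CPM, estimation without the robust option, a replicate block, the 2 compared groups alone, DESeq2 1.42.0, a minimum fold change of 1.5, removal of a GC or length trend by lowess (span 0.3), and leaving out each library. Libraries of a group differed by more than sampling noise (chi-square per degree of freedom 6.82 to 19.0), so each was counted.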

Additional observations from a re-analysis of the deposited data

Results flagged for a closer look

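The inhibitor's effect on Cftr differed between the genotypes in the test of the difference itself (log2 difference of ADPKD minus WT effects 5.19, adjusted p = 0.00516). Cftr was higher with 666-15 in both ADPKD libraries than in both vehicle libraries, and lower with it in both WT libraries than in both vehicle libraries. The value was 4.47 without vehicle ADPKD replicate 1 and 6.67 without replicate 2.

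The inhibitor's effect on Kcnq1 also differed between the genotypes by that test (-1.25, adjusted p = 3.69e-04). It was higher with 666-15 in both genotypes, by less in ADPKD than in WT cells. The value was -1.15 without the female library and -0.84 with the GC trend removed.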

How the results depend on the processing

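Of 856 differences of the 8 genes recomputed under 18 alternatives, 769 kept direction and side of the threshold, 33 changed sign, 27 lost a call and 27 gained one, and the cause was not tested. The number of genes called between genotypes with vehicle was 5 at a minimum fold change of 1.5, and 7 to 8 when single libraries were left out. For the inhibitor in ADPKD cells it was 5 without a filter, with a filter of 5 CPM and with the 2 groups alone, 1 at the minimum fold change, and 2 to 4 when single libraries were left out. In WT cells it was 2 with a filter of 5 CPM, without the robust option and with the 2 groups alone, and 1 to 2 when single libraries were left out. With inhibitor in both genotypes it was 4 at the minimum fold change and 6 to 8 without single libraries. For 666-15 ADPKD against vehicle WT it was 3 and 5 to 6, and for the difference of inhibitor effects it was 2 without any single library. The difference of effects could not be fitted with 2 groups alone.

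Sign changes fell on differences without a call. With the inhibitor in ADPKD cells, Slc12a2 was at -0.15 and -0.089 after removal of the GC and length trends, and -0.080 to 0.35 without single libraries. Ano1 was at -0.069 with a filter of 5 CPM, -0.019 with the 2 groups alone, -0.099 with the length trend removed and -0.053 to 0.10 without single libraries. Ano6 was at -4.2e-04 with RLE scaling, -0.070 with a filter of 5 CPM, -0.020 with the 2 groups alone, -0.12 with the length trend removed and -0.0083 to 0.056 without single libraries. In WT cells Slc12a2 was at -0.015 with RLE scaling, -0.012 with DESeq2, -0.010 with the GC trend removed, -0.057 with a filter of 5 CPM, -0.027 with the length trend removed and -0.18 to 0.24 without single libraries. For the difference of effects, Slc12a2 was at -0.14 and -0.062 with the GC and length trends removed, and with the GC trend removed Ano1 was at 1.6e-04, Kcnn4 at 0.011 and P2ry2 at 0.30. Without single libraries Slc12a2 ran from -0.12 to 0.31, Kcnn4 from -0.51 to 0.37 and P2ry2 from -0.43 to 0.19.

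No pairing by replicate number was seen across genes: deviations of same-numbered libraries correlated at -0.042 to 0.091 between groups over 11199 genes. A correlation over so many genes cannot show whether a few genes share a pairing or a batch. With the replicate block, the number of genes called was 8 between genotypes with vehicle, 4 and 1 for the inhibitor in ADPKD and WT cells, 7 and 6 for the other genotype comparisons and 2 for the difference of effects.

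With 2 libraries a group and 20 to 87 counts of Cftr in vehicle ADPKD cells, the size of its difference is known less well than its direction.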
